A study of Homo sapiens with 3 samples.

Results

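The circadian clock genes described here were the 10 rows of the deposited gene table named CLOCK (ENSG00000134852), PER1 (ENSG00000179094), PER2 (ENSG00000132326), PER3 (ENSG00000049246), CRY1 (ENSG00000008405), CRY2 (ENSG00000121671), NR1D1 (ENSG00000126368), NR1D2 (ENSG00000174738), DBP (ENSG00000105516) and TEF (ENSG00000167074). All 10 were listed among 16662 genes, and all 10 passed an expression filter that kept 13879 genes. RNA came from H1975, the 1 cell line of the study, which was established from a human lung adenocarcinoma with mutant EGFR, and each of the 3 groups was 1 library: the control siRNA (siNC), siHHLA3-1 and siHHLA3-3. The last 2 are small interfering RNAs against HHLA3, whose symbol refers to an endogenous retroviral repeat. Every group had the same schedule, with transfection at about 70% confluency, 6 h in serum-free medium and 24 h in medium with 10% serum before harvest. The labels give every library a batch name of its own, so an effect of batch and one of the siRNA cannot be told apart.

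The clock is a loop of transcription and feedback. CLOCK pairs with BMAL1 (listed under its older symbol ARNTL) and binds E-boxes in DNA, which drives the PER, CRY, NR1D, DBP and TEF genes. PER and CRY proteins then block CLOCK and BMAL1, the NR1D receptors repress the BMAL1 gene, and DBP and TEF act on D-boxes. A return of serum is known to reset this loop in cultured cells. Each library was harvested at a single time, so a shift in the phase of the loop and a difference in its level cannot be told apart. In bulk RNA, fewer cells with a transcript and less of it per cell cannot be told apart either.

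The promoter stretches below hold the letters of the elements that the loop is known to use, for the genes whose levels follow. A match to these letters is a description and does not show binding. The stretches are RefSeq sequences on GRCh38.p14, taken from windows of 250 bases before to 50 bases after each annotated start. All 10 genes had such a window, 15 in all, and not every window held an element. Capitals mark an E-box (CACGTG), an E-prime box (CACGTT, or AACGTG on the other strand) or a D-box (TTATGTAA, or TTACATAA on the other strand). The E-prime boxes of CLOCK and CRY2 and a D-box of PER2 in another form (TTACGTAA) were also found and are not shown.
PER1, E-box, chr17:8152547-8152602, minus strand: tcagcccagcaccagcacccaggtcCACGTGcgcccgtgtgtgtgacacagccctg
PER2, E-prime box, chr2:238288777-238288832, minus strand: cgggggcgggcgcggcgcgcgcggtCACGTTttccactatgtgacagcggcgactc
PER3, D-box, chr1:7784089-7784146, plus strand: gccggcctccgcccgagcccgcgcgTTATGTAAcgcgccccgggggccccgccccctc
CRY1, E-prime box, chr12:107093608-107093663, minus strand: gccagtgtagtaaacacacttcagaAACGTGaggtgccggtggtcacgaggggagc
NR1D1, E-prime box, chr17:40100727-40100782, minus strand: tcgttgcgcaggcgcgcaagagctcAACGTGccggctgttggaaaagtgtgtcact
NR1D2, D-box and 2 E-boxes, chr3:23945902-23946046, plus strand: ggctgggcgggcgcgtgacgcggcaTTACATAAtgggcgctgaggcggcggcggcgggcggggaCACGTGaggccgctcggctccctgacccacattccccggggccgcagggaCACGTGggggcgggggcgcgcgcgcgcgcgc
TEF, E-box of the upstream window, chr22:41367235-41367290, plus strand: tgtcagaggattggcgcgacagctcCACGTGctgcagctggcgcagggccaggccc
TEF, E-box of the downstream window, chr22:41381724-41381779, plus strand: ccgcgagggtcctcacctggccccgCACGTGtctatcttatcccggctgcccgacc

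Levels are given as normalised CPM, the deposited read count over the library total after scaling with TMM factors, with an exact 95% Poisson interval where one is stated. The siNC library held 32813003 reads, the siHHLA3-1 library 35069930 and the siHHLA3-3 library 26950852. Where 3 levels follow each other without a name, they are in that order. Log2 ratios were taken after adding 1 to each CPM, which makes them smaller for low genes, and folds are plain ratios of CPM with an exact 95% binomial interval. With 1 library per group no spread between replicates can be had, so each interval holds the counting error alone. The siRNA target HHLA3 stood at 5.99 CPM in the siNC library, 1.55 after siHHLA3-1 and 0.735 after siHHLA3-3, lower in both libraries that received its siRNAs. All 6 epithelial markers searched were listed, with summed levels of 5255, 4935 and 4129 CPM. The alveolar markers NKX2-1 and NAPSA were listed, at a summed 70.4, 77.3 and 38.8 CPM, while SFTPA1, SFTPB and SFTPC were not. Of 7 endothelial and fibroblast markers, CDH5 and COL1A1 were listed, and the defining genes PECAM1 and COL1A2 were not, nor was the leukocyte gene PTPRC. CDH5 stood at 7.95, 19.2 and 3.01 CPM and COL1A1 at 11.3, 24.5 and 10.9. The epithelial and alveolar sums were thus lowest in the siHHLA3-3 library. Of the epithelial genes, EPCAM, CDH1, KRT8 and KRT19 were lowest there. KRT7 (1902, 1610 and 1623 CPM) and KRT18 (402, 358 and 387 CPM) were lowest with siHHLA3-1. The part of cell state in the clock gene levels was not tested.

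With siHHLA3-3, 9 of the 10 clock genes were lower than with siNC, and PER3, TEF and DBP were at least 2-fold lower. With siHHLA3-1, 9 of 10 were also lower, by smaller amounts, and 0 of 10 reached 2-fold; CRY2, at -0.04 on the log2 scale, was on the other side of 0 with library totals alone or the deposited TPM. NR1D1, which encodes the repressor REV-ERB alpha, was not lower with either. The median log2 ratio of the 10 genes was -0.31 with siHHLA3-1 and -0.71 with siHHLA3-3, beside -0.01 and -0.01 for all 13879 genes. Both comparisons use the same siNC library, so they are not independent of each other.

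**Figure D1:**
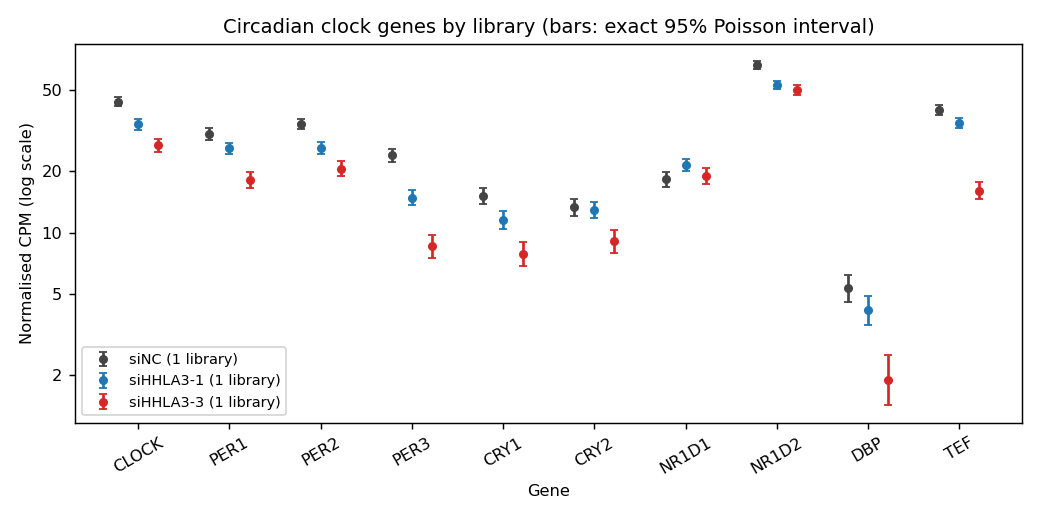
Normalised CPM (vertical axis, log scale) of the 10 clock genes in the siNC, siHHLA3-1 and siHHLA3-3 libraries, 1 point per library with its exact 95% Poisson interval. The siHHLA3-3 point is the lowest of the 3 for every gene but NR1D1, and PER3, TEF and DBP show the widest gaps.

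The activator CLOCK, the DNA-binding partner of BMAL1, stood at 43.8 CPM in the siNC library (41.6 to 46.2, 1406 counts), 33.8 after siHHLA3-1 (32.0 to 35.8, 1202 counts) and 26.8 after siHHLA3-3 (24.9 to 28.8, 730 counts). The library intervals did not overlap, and the order from high to low was siNC, siHHLA3-1, siHHLA3-3. CLOCK was 1.29-fold lower with siHHLA3-1 (1.20 to 1.40) and 1.63-fold lower with siHHLA3-3 (1.49 to 1.79).

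The PER genes encode the repressors whose build-up closes the loop. PER3 stood at 23.9 CPM in the siNC library (22.3 to 25.7, 768 counts), 14.8 after siHHLA3-1 (13.6 to 16.2, 527 counts) and 8.56 after siHHLA3-3 (7.49 to 9.73, 233 counts). The intervals of the 3 libraries did not overlap, and PER3 had the lowest ratio of the 10 genes with either siRNA. It was 1.61-fold lower with siHHLA3-1 (1.44 to 1.81) and 2.80-fold lower with siHHLA3-3 (2.41 to 3.25). Of the 13879 genes, 2.17% had a lower ratio than PER3 with siHHLA3-1 and 0.461% with siHHLA3-3. In GENCODE release 29 (GRCh38), exons of UTS2 on the opposite strand overlap 10.7% of the exonic bases of PER3, and those of Z98884.1 overlap 5.95%. Neither gene was listed, and their part in the PER3 level was not tested. PER2, the PER gene that carries the E-prime box shown above, stood at 34.1, 26.0 and 20.6 CPM (1094, 924 and 560 counts). PER1, the PER gene most readily induced by serum and cAMP, stood at 30.4, 25.9 and 18.0 CPM (975, 918 and 491 counts). Both were thus lowest with siHHLA3-3, PER2 by 1.66-fold (1.496 to 1.84) and PER1 by 1.69-fold (1.51 to 1.88) below siNC. With siHHLA3-1 the corresponding differences were 1.31-fold (1.20 to 1.43) and 1.18-fold (1.07 to 1.29).

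The cryptochromes CRY1 and CRY2 are the partners of the PER proteins and the stronger repressors of CLOCK and BMAL1. CRY1 stood at 15.1 CPM in the siNC library, 11.5 after siHHLA3-1 and 7.90 after siHHLA3-3 (483, 409 and 215 counts). CRY2 stood at 13.3, 13.0 and 9.07 CPM (428, 460 and 247 counts). CRY1 was below siNC by more than counting error in both libraries, and CRY2 with siHHLA3-3 alone. CRY1 was 1.31-fold lower with siHHLA3-1 (1.14 to 1.49) and 1.91-fold lower with siHHLA3-3 (1.62 to 2.25). For CRY2 the values were 1.03-fold (0.901 to 1.18) and 1.47-fold (1.25 to 1.73). The siHHLA3-1 interval of CRY2 includes no difference, and its log2 ratio was 0.01 with library totals alone and with the deposited TPM.

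NR1D1 and NR1D2 encode the nuclear receptors REV-ERB alpha and beta, which repress the BMAL1 gene. NR1D1 stood at 18.2 CPM in the siNC library (16.8 to 19.7, 584 counts), 21.4 after siHHLA3-1 (19.9 to 23.0, 761 counts) and 18.9 after siHHLA3-3 (17.3 to 20.6, 515 counts). It was higher with siHHLA3-1, with a ratio of 1.18 (1.06 to 1.31), and its siHHLA3-3 level lay inside the siNC interval, with a ratio of 1.04 (0.921 to 1.17). In the same annotation, 9.49% of the exonic bases of NR1D1 overlap exons of THRA, the thyroid hormone receptor alpha gene on the opposite strand. THRA itself stood at 20.9, 28.1 and 32.4 CPM, higher in both knockdown libraries. Whether counting used strand is not given in the sources used here. Reads of the shared stretch then cannot be told apart, and their part in the NR1D1 level was not tested. NR1D2 stood at 66.2, 52.7 and 49.8 CPM (2123, 1871 and 1357 counts). It was 1.26-fold lower with siHHLA3-1 (1.18 to 1.34) and 1.33-fold lower with siHHLA3-3 (1.24 to 1.42), the smallest difference with siHHLA3-3 among the 9 lower genes.

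DBP and TEF are PAR bZIP transcription factors, output activators of the clock that bind D-boxes. TEF stood at 39.9 CPM in the siNC library (37.7 to 42.1, 1279 counts), 34.4 after siHHLA3-1 (32.5 to 36.4, 1222 counts) and 16.1 after siHHLA3-3 (14.6 to 17.6, 437 counts). The library intervals did not overlap, and the siHHLA3-3 library lay furthest apart, with the siNC and siHHLA3-1 libraries closer together. TEF was 1.16-fold lower with siHHLA3-1 (1.07 to 1.25) and 2.48-fold lower with siHHLA3-3 (2.23 to 2.78). DBP was the least abundant of the 10 and the least precisely measured, at 5.33 CPM in the siNC library (4.56 to 6.19, 171 counts), 4.17 after siHHLA3-1 (3.52 to 4.90, 148 counts) and 1.91 after siHHLA3-3 (1.43 to 2.50, 52 counts). Its siNC and siHHLA3-1 intervals overlapped, and its siHHLA3-3 interval lay below both. DBP was 1.28-fold lower with siHHLA3-1 (1.02 to 1.60) and 2.79-fold lower with siHHLA3-3 (2.04 to 3.88). Its log2 ratio with siHHLA3-3 was -1.12 from CPM and -0.89, short of 2-fold, from the deposited TPM. Exons of SPHK2 on the opposite strand overlap 10.1% of the exonic bases of DBP. SPHK2 stood at 12.6, 9.91 and 10.4 CPM, and its part in the DBP level was not tested.

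**Figure D2:**
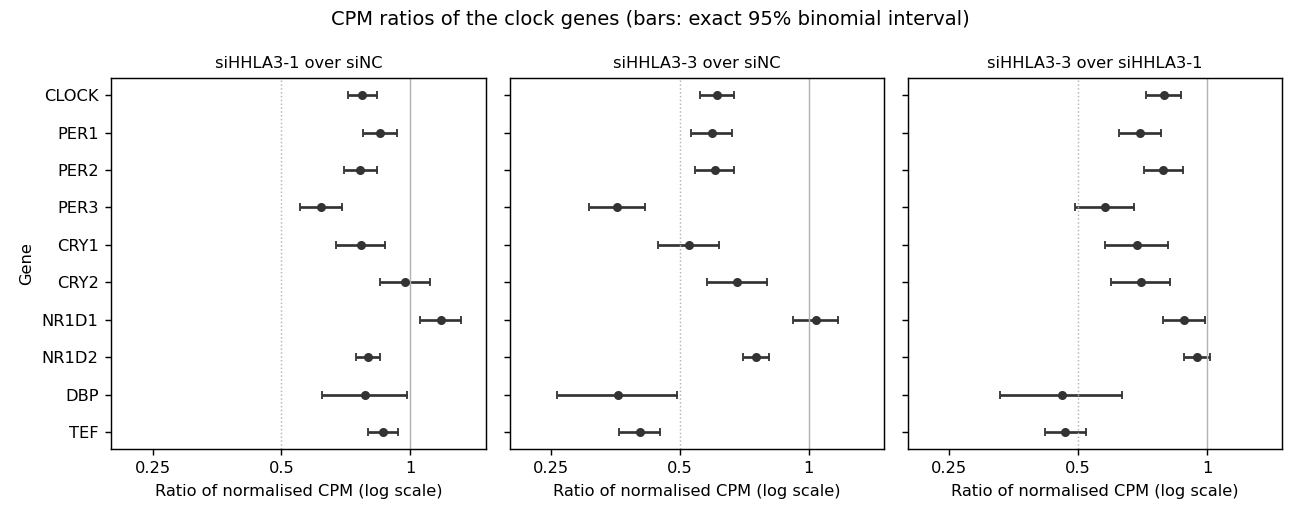
Ratio of normalised CPM (horizontal axis, log scale) for each of the 10 clock genes in 3 comparisons, with the exact 95% binomial interval. The solid line marks no difference and the dotted line a ratio of 0.5; with siHHLA3-3 the PER3, DBP and TEF intervals lie wholly below the dotted line.

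Against the background of all genes, the 2-fold rule called 0 of the 10 clock genes higher or lower with siHHLA3-1, where it called 0.973% of the 13879 genes higher and 0.382% lower. With siHHLA3-3 it called 3 of 10 lower and 0 higher, where it called 1.48% of all genes lower and 0.807% higher. A log2 ratio below 0 was found for 9 of 10 with siHHLA3-1, beside 51.8% of all genes, and for 9 of 10 with siHHLA3-3, beside 51.5%. Counting intervals are narrow at this depth, and many genes pass them. The interval lay wholly below 1 for 8 of 10 with siHHLA3-1, beside 32.6% of all genes, and for 9 of 10 with siHHLA3-3, beside 30.6%. It lay wholly above 1 for 1 of 10 (NR1D1) with siHHLA3-1, beside 28.7%, and for 0 of 10 with siHHLA3-3, beside 27.6%.

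Compared directly, the siHHLA3-3 library had lower ratios than the siHHLA3-1 library for all 10 genes, beside 49.6% of all genes, with a median log2 ratio of -0.48. By the 2-fold rule on (CPM + 1), TEF alone was called lower, at a log2 ratio of -1.05, and DBP was not, at -0.83. The rule called 2.12% of all genes lower and 0.757% higher in that comparison. As plain ratios of CPM, DBP was 2.18-fold lower (1.58 to 3.05), TEF 2.14-fold lower (1.92 to 2.40) and PER3 1.73-fold lower (1.48 to 2.03). NR1D2 differed least, at 1.06-fold lower (0.985 to 1.13), and was the 1 gene of the 10 whose interval was not wholly below 1. The interval was wholly below 1 for 9 of 10, beside 31.1% of all genes, and above 1 for 0 of 10, beside 31.6%.

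With siHHLA3-1 and siHHLA3-3 as 2 samples against siNC, edgeR's quasi-likelihood test called 0 of the 10 genes. That fit has 1 residual degree of freedom, its spread is the difference between the siRNAs, and it gives the single siNC library the same spread. It called 0 genes higher (0%) and 1 gene lower (0.00721%) at a Benjamini-Hochberg adjusted p under 0.05. The 1 gene was BOLA2B (adjusted p = 0.0498), named after its value was seen. At an unadjusted p under 0.05 edgeR gave 222 higher and 127 lower genes. Of the 10 clock genes, PER3 alone was among the lower ones. DESeq2 called 3 genes higher and 2 lower, with 0 of the 10 among them. The Benjamini-Hochberg adjusted p of each of the 10 was 1.00 in every edgeR and DESeq2 fit run. The ratios and intervals given for the clock genes therefore describe these 3 libraries.

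Levels of different genes were compared in deposited TPM, which the authors scaled by gene length. NR1D2 was the most abundant in every library, with 39.1 TPM in the siNC library, 32.4 after siHHLA3-1 and 30.8 after siHHLA3-3. NR1D1 followed with a mean of 26.1 TPM (range 23.7 to 29.0) and TEF with 22.4 (12.2 to 29.0). In the siNC library TEF ranked above NR1D1, and in the siHHLA3-1 and siHHLA3-3 libraries that order was the opposite. PER2, PER1, CLOCK and CRY1 came next, with means of 13.7, 12.4, 10.6 and 8.42 TPM and the same ranks in each library. PER3 (6.78, range 3.76 to 10.1) and CRY2 (6.68, range 5.23 to 7.44) were close. DBP was the lowest in each library, at 2.81, 2.29 and 1.05 TPM. From NR1D1 down to CRY2, the range of every gene overlapped that of the next, so over the 3 libraries only NR1D2 at the top and DBP at the bottom stood clear of their neighbours.

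**Figure D3:**
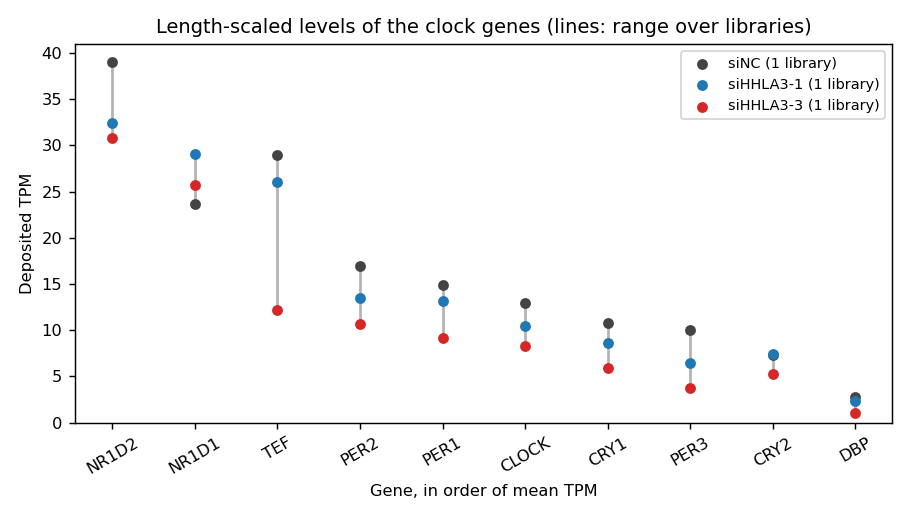
Deposited TPM (vertical axis, linear from 0) of the 10 clock genes in order of mean, 1 point per library and a line over the range. NR1D2 is clear at the top and DBP at the bottom, and TEF spans 12.2 to 29.0 TPM.

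Of the 14 symbols fixed for the other genes of the core loops, 7 were listed, and BMAL1 and BMAL2 were listed as ARNTL and ARNTL2. BHLHE41, HLF and the receptor genes RORA and RORB were not among the listed genes. The activator ARNTL stood at 21.5 CPM in the siNC library, 29.4 after siHHLA3-1 and 27.0 after siHHLA3-3. It was above siNC in both, with ratios of 1.37 (1.24 to 1.51) and 1.25 (1.13 to 1.39), where its partner CLOCK was below. NPAS2, which can take the place of CLOCK, stood at 12.5, 14.0 and 16.0 CPM, with ratios of 1.12 (0.982 to 1.28) and 1.28 (1.12 to 1.47). ARNTL2, a paralog of ARNTL, stood at 35.8, 39.1 and 73.8 CPM. Its siHHLA3-3 level was 2.06-fold that of siNC (1.91 to 2.21), the 1 gene of the 7 past 2-fold. The 2-fold rule called 0.807% of all genes higher with siHHLA3-3.

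NFIL3, the repressor that competes with DBP and TEF at D-boxes, stood at 36.5 CPM in the siNC library, 44.4 after siHHLA3-1 and 52.1 after siHHLA3-3. It was higher in both knockdown libraries, with ratios of 1.22 (1.13 to 1.31) and 1.43 (1.32 to 1.54). CIART, a repressor of CLOCK and BMAL1, stood at 10.8, 10.4 and 6.50 CPM, with ratios of 0.963 (0.830 to 1.12) and 0.601 (0.499 to 0.722). Its siHHLA3-1 log2 ratio of -0.05 was above 0 with the deposited TPM and after thinning to equal depth. BHLHE40 (DEC1), an E-box repressor, stood at 278, 291 and 251 CPM, with ratios of 1.05 (1.02 to 1.08) and 0.903 (0.875 to 0.932). TIMELESS, which acts mainly at replication forks, stood at 177, 125 and 153 CPM, with ratios of 0.708 (0.681 to 0.737) and 0.864 (0.830 to 0.900). The activators ARNTL, ARNTL2 and NPAS2 and the D-box repressor NFIL3 were thus above siNC with siHHLA3-3. CIART, BHLHE40 and TIMELESS, like the PER and CRY genes, were below. The median over the 7 genes was 0.12 with siHHLA3-1 and 0.31 with siHHLA3-3, with 5 and 4 of them above 0. The other 2 and 3 were below 0, beside 51.8% and 51.5% of all genes.

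**Figure D4:**
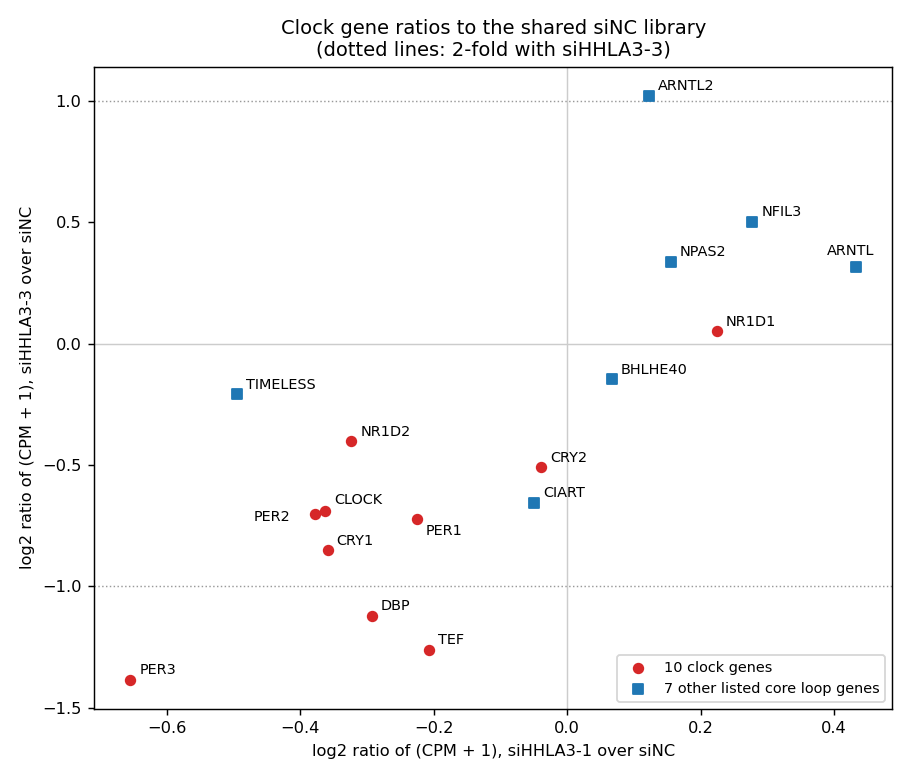
Log2 ratio of (CPM + 1) to siNC with siHHLA3-1 (horizontal axis) and siHHLA3-3 (vertical axis) for the 10 clock genes (circles) and 7 other listed core loop genes (squares). PER3, TEF and DBP lie below the dotted 2-fold line and ARNTL2 above it; both axes share the siNC library, so the position along the diagonal is no independent evidence.

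Of 24 kinases, phosphatases and ubiquitin enzymes that act on clock proteins, 21 were listed. Their log2 ratios were below 0 for 12 with siHHLA3-1, beside 51.8% of all genes, and for 15 with siHHLA3-3, beside 51.5%. With siHHLA3-1, 0 of the list were past 2-fold, beside 0.973% of all genes higher and 0.382% lower. With siHHLA3-3, 2 were at least 2-fold lower, beside 1.48% of all genes. The medians were -0.13 and -0.17. PPP2CA, a catalytic subunit of protein phosphatase 2A, stood at 192, 157 and 52.0 CPM. PPP1CC, a catalytic subunit of protein phosphatase 1, stood at 194, 162 and 90.6 CPM. Both phosphatase genes were thus lowest with siHHLA3-3. The other listed phosphatase genes PPP1CA, PPP1CB and PPP5C had siHHLA3-3 log2 ratios of -0.04, -0.26 and 0.01. The PER kinase genes CSNK1D (165, 203 and 182 CPM) and CSNK1E (87.3, 103 and 99.2 CPM) were above siNC in both libraries. The other listed kinase genes had ratios below 1 with siHHLA3-3, with the lowest for GSK3A (19.4, 17.7 and 10.4 CPM). The interval of CSNK2B, with a ratio of 0.988 (0.794 to 1.23), included no difference. SIAH2, a ubiquitin ligase for REV-ERB alpha, had the highest mean ratio of the list, at 23.4, 33.2 and 30.5 CPM.

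Of 22 cofactors of the clock 21 were listed. In each comparison with siNC 14 were below 0, not all of them the same genes. Of all genes, 51.8% were below 0 with siHHLA3-1 and 51.5% with siHHLA3-3. DDX6, an RNA helicase, was the 1 cofactor gene past 2-fold, at 145, 141 and 59.5 CPM. It was lower with siHHLA3-3, where the rule called 1.48% of all genes lower. The medians were -0.07 and -0.11, and the highest mean ratio was that of NCOA2 (108, 142 and 110 CPM), a coactivator of nuclear receptors. Of 26 genes that commonly cycle in tissues 21 were listed. In each comparison with siNC 9 of these were below 0, again not all the same genes, beside the same shares of all genes. ALAS1, the first enzyme of haem synthesis, was the 1 cycling gene past 2-fold, at 74.6, 55.8 and 28.1 CPM. It too was lower with siHHLA3-3. The medians of that list were 0.02 and 0.06, and PPARA, a lipid-sensing receptor driven by CLOCK, had its highest mean ratio, at 15.1, 23.1 and 18.7 CPM. As a list these output genes had medians within 0.1 of those of all genes.

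Of 25 genes that share serum, cAMP or glucocorticoid inducers with PER1, 21 were listed. Below 0 were 7 with siHHLA3-1, beside 51.8% of all genes, and 10 with siHHLA3-3, beside 51.5%. The list had medians of 0.06 and 0.06. ATF3, a stress-induced factor, was the 1 past 2-fold, at 15.3, 25.5 and 37.5 CPM. It was higher with siHHLA3-3, where the rule called 0.807% of all genes higher. FKBP5, a glucocorticoid target, was the lowest by mean ratio, at 70.9, 57.7 and 43.0 CPM. PER1 itself was in this list, with log2 ratios of -0.23 and -0.72.

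The E-box CACGTG was found on either strand in 3 of the 10 genes, beside 8.77% of 27305 genes with a promoter (7.26% of 35116 windows of the same length). With siHHLA3-3 those 3 had log2 ratios of -0.72 (PER1), -0.40 (NR1D2) and -1.26 (TEF). The E-prime box was found in 5, beside 6.44% of genes, and their ratios were -0.69 (CLOCK), -0.70 (PER2), -0.85 (CRY1), -0.51 (CRY2) and 0.05 (NR1D1). The ranges of the carriers of each box overlapped. Of the D-boxes, TTATGTAA was found in PER3 and NR1D2, beside 1.13% of genes, and TTACGTAA in PER2, beside 0.146%. The ROR element TAGGTCA, which ROR and REV-ERB receptors share, was found in CRY2 among the 10, and in ARNTL and NFIL3, beside 2.29% of genes. The cAMP element TGACGTCA was found in 0 of 10, beside 2.25%, and its short form TGACG, which lies within it, in 5 of 10, beside 28.4%. In DBP no searched letters were found in this window, which says nothing of the rest of the gene. Over the 9994 genes that passed the filter and had a promoter, the 1242 with an E-box had a median ratio (log2) of -0.06 after siHHLA3-1 and -0.01 after siHHLA3-3, and those without it -0.02 and -0.02.

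An siRNA can also lower transcripts that match its seed in the 3′ untranslated region (UTR), and the sequences of these siRNAs are not given in the sources used here. For each knockdown library, 7-base sequences were searched in the 3′ UTRs of GENCODE release 29 (10498 genes of at least 5 CPM). The sequence with the lowest t statistic for the log2 ratios of its carriers against the other genes was taken. It was CAGAATG for siHHLA3-1, carried by 23.3% of those genes, and GTGAACT for siHHLA3-3, carried by 16.0%. Carriers of CAGAATG had a median log2 ratio of -0.09 with siHHLA3-1, beside -0.02 for genes without it. For GTGAACT with siHHLA3-3 the medians were -0.17 and -0.001. Both sequences were chosen on these same ratios and are a description. CLOCK was the 1 gene of the 10 that carried GTGAACT, at 2 places of its longest 3′ UTR of 7512 bases, and its ratio of -0.69 with siHHLA3-3 lay amid those of the 9 without it (-1.38 to 0.05). PER3, TEF and DBP, the genes past 2-fold with siHHLA3-3, did not carry it in any annotated 3′ UTR. CAGAATG was carried by CLOCK, NR1D2 and TEF, with siHHLA3-1 ratios of -0.36, -0.32 and -0.21, inside the range of the 7 without it (-0.65 to 0.22). The GTGAACT sites in CLOCK and the CAGAATG site in TEF are shown in the sense of the transcript, with the 7 bases in capitals.
CLOCK, GTGAACT, from base 1601 of the UTR: gccttctaaacGTGAACTaagatttcctt
CLOCK, GTGAACT, from base 2436 of the UTR: cttaaaagatgGTGAACTgtgagtactac
TEF, CAGAATG, from base 377 of the UTR: ggctatctctgCAGAATGagttgtgatca

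Among the genes of the related lists at least 2-fold lower with siHHLA3-3, PPP2CA and DDX6 carried GTGAACT in a 3′ UTR, and PPP1CC and ALAS1 did not. Other genes of the lists carried it short of 2-fold. Examples, with their siHHLA3-3 log2 ratios, are CSNK1D (0.15), NCOA2 (0.03) and FKBP5 (-0.71). The part of such sites in any of these levels was not tested.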

How the data were processed

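RNA sequencing of 3 H1975 libraries gave 1 table of 16662 genes. The authors deposited counts, which are whole reads per gene, CPM, which are those counts over the library total, and TPM, which are scaled by gene length, per the file headers. HISAT2, HISAT, TopHat2, Bowtie2 and the build hg19 are named in the submitters' processing notes; the counting program and its use of strand are not given in the sources used here. Library totals were recovered from the deposited counts and CPM.

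Counts were scaled with TMM factors (edgeR 4.0.16, R 4.3.3). The filter kept genes with a mean CPM of 1 or more, and a ratio of (CPM + 1) of 2-fold was called, with no p-value. As a secondary fit, both siHHLA3 libraries were set against siNC with edgeR's quasi-likelihood test. Alternatives were DESeq2 1.42.0, library totals, a pseudocount of 0.1, no filter, 5 CPM, TPM, 1.5-fold and thinning to the smallest library. Scripts were tested on simulated data (Python 3.11.15).

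The clock genes and the 5 related lists were chosen with earlier results of these data known. Named are all 10 genes, HHLA3, listed core loop genes, and of each other list the genes past 2-fold and the highest and lowest by mean ratio. Outside this rule, THRA, SPHK2, CSNK1D and CSNK1E were named after their values were seen, the last 2 for their known roles. GSK3A, CSNK2B, PPP1CA, PPP1CB and PPP5C were also named after their values were seen. Some genes of the lists are not reported here. Promoters are from RefSeq (GRCh38.p14), a build other than that of the counts.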

Additional observations from a re-analysis of the deposited data

How the results depend on the processing

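No paired analysis was possible because each group held 1 library. PER3 and TEF were at least 2-fold lower with siHHLA3-3 under each alternative tried; DBP was not with the deposited TPM. NR1D1 stayed above 0 in both comparisons with siNC under each. The siNC comparisons of BHLHE40 moved by more than counting error with library totals alone and with the deposited TPM. Those of TIMELESS did so with the deposited TPM, and the sign of each stayed the same. At 1.5-fold, 7 of the 10 clock genes were lower with siHHLA3-3, beside 773 of all 13879 genes. With siHHLA3-1 it was 1 of 10 (PER3), beside 463 of 13879. Between the siRNAs it was 3 of 10, beside 1085 of 13879. A pseudocount of 0.1 placed DBP past 2-fold between the siRNAs as well (-1.09). Over all genes, a pseudocount of 0.1 gave 233 higher and 80 lower with siHHLA3-1 (135 and 53 with 1) and 185 higher with siHHLA3-3 (112 with 1). At 1.5-fold the counts were 698 higher and 463 lower with siHHLA3-1, 506 and 773 with siHHLA3-3 (205 lower at 2-fold), and 610 and 1085 between the siRNAs (105 and 294 at 2-fold). For both siRNAs together, DESeq2 called 3 genes higher (ZNF554, RSAD2 and LPAR6) and 2 lower (BOLA2B and XAGE1B), where edgeR's quasi-likelihood test called 0 and 1. With library totals alone, or from 5 CPM, edgeR called 0 lower. BOLA2B and XAGE1B have near-identical copies and are uncertain, and these genes were named after their values were seen. Depth limits DBP most, with 52 counts in the siHHLA3-3 library, and the lack of replicates limits every value.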

Other observations

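PER3 had the largest mean ratio in size of the 10 clock genes. Among 11217 genes of at least 5 CPM, the closest to it in the pair of log2 ratios (-0.65 with siHHLA3-1 and -1.38 with siHHLA3-3) were CD2AP, LMNB1 and DNAJB6P1, over 3 libraries that share siNC. CD2AP, an adaptor of the actin cytoskeleton, stood at 110, 67.8 and 41.9 CPM in the siNC, siHHLA3-1 and siHHLA3-3 libraries. LMNB1, lamin B1 of the nuclear envelope, stood at 209, 132 and 77.3 CPM. DNAJB6P1 is a pseudogene that may share reads with DNAJB6 and is uncertain, at 21.9, 13.7 and 8.12 CPM. Within 0.2 of PER3 in distance there were 7 genes. Neither CD2AP nor LMNB1 carried GTGAACT in an annotated 3′ UTR, and CD2AP carried CAGAATG.

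The 63 genes that passed the filter and had the D-box TTATGTAA in a promoter window, PER3 and NR1D2 among them, had a median ratio (log2) of -0.10 after siHHLA3-1 and -0.18 after siHHLA3-3. The other genes with a promoter had -0.02 and -0.02. The 22 genes with the D-box TTACGTAA, PER2 among them, had -0.08 and -0.03, beside -0.02 and -0.02 without it.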
